A study of Rattus norvegicus with 22 samples.

Results

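Broad domains of histone H3 lysine 4 trimethylation (H3K4me3) were described in the hippocampus of rats 1 day after sham surgery or traumatic brain injury (TBI). A broad domain was a stretch in which both sham samples had an H3K4me3 peak of at least 4000 bases, with the peaks of both samples overlapping by 1 base or more, and it was taken as the union of those peaks. This rule found 1736 domains among 623535 regions obtained by merging the peaks of all 4 samples. The lengths in the sham samples chose the domains, so these lengths are given as a description, and measures in the TBI samples are given beside them.

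H3K4me3 is laid down mainly by the SET1 and MLL families of methyltransferases and marks the promoters of active genes, usually as a narrow peak around the transcription start. At a minority of genes the mark spreads far into the gene body. In many tissues such broad domains lie at genes that define the cell type, and they have been linked to steady and high transcription.

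The animals were adult male Sprague-Dawley rats. The TBI group received a lateral fluid percussion injury, a pressure pulse of fluid applied to the dura through an opening in the skull over the right hemisphere. Sham rats went through the surgery and anesthesia but were given no pulse. Whole hippocampus on the injured side was taken, so the signal is a mixture over all its neurons, glia and vascular cells, and fewer cells of a type cannot be told apart from less of the mark per cell. Chromatin was immunoprecipitated with an H3K4me3 antibody and sequenced, with 2 sham and 2 TBI samples, and the labels do not tie a sample to a particular rat, so the spread between samples may be partly technical. The tissue could not be checked against marker genes in these data, because peaks carry positions in the rat build rn5 and no gene names.

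Both TBI lists carry a name inside the file that contains the word Sham, while the labels of the same samples say TBI. The groups here follow the labels, and every TBI value below is that of a library labelled TBI. The share of tags dropped as duplicates was 0.28 and 0.29 in the sham libraries. It was 0.35 and 0.39 in the TBI libraries, so the groups also differed in this. The second TBI library also stands apart in depth, with 7236993 tags kept after duplicate removal, against 16062200 in the first TBI library and 17789038 and 18972037 in the sham libraries. Its list has 353688 peaks, against 116241 to 235078 in the others, and its lowest pileup is 2 stacked tags, against 3 or 4. The main counts that rest on it are therefore also given without it.

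Most domains were well under 10000 bases long. The union length ran from 4072 to 30903 bases with a median of 5592, and the middle of the distribution (quartiles) lay between 4908 and 6597 bases. Of the 1736 domains, 510 (29.4%) were under 5000 bases, 74 (4.26%) were over 10000 bases and 9 were over 15000 bases. Together they covered 10.6 Mb. In sham replicate 1, 1741 of 2479 peaks of at least 4000 bases (70.2%) belonged to a domain, and in sham replicate 2 this was 1742 of 2243 (77.7%).

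Near the limit the choice turned on a few bases. Just inside it, the pair of sham peaks at chr20:6654800-6658799 had lengths of 4000 and 4254 bases, and the longest TBI peaks there were 4819 and 3857 bases. The pair at chr7:12443879-12450917 had 7039 and 4000 bases in sham and 10424 and 10160 bases in TBI. The pair at chr15:62344370-62350719 had 6350 and 4002 bases in sham and 5723 and 4001 bases in TBI. Just outside, the pair at chr6:35437309-35441307 missed the limit by 1 base in sham replicate 1 although the TBI peaks were 8284 and 4084 bases long. The pairs at chr4:173006139-173010278 (4140 and 3998 bases in sham) and chr7:134463844-134467841 (3998 and 4185 bases) missed the limit by 2 bases.

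Every assembled chromosome held at least 1 domain, from 213 on chromosome 1, 144 on chromosome 10 and 134 on chromosome 2 to 29 on chromosome X. As a share of all regions of 1000 bases or more that both sham samples had, domains made up 11.0% over the genome. This share was highest on chromosome 15 (14.6%) and lowest, among the nuclear chromosomes, on chromosome X (6.36%). The mitochondrial genome, which carries no histones, was counted as 1 domain because a single peak spanned all of its 16313 bases in each of the 4 samples, with pileups (the mean number of stacked tags over a peak) of 280 and 170 in sham and 148 and 180 in TBI. It had the highest pileup of any domain in every sample, and its pileup divided by the tags of the library (the per-million pileup) was 15.7 and 8.94 in sham and 9.21 and 24.8 in TBI, so its level differed within each group.

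In the sham samples the domains were mostly a single unbroken peak. Of the 1736 domains, 1509 (86.9%) held 1 peak in sham replicate 1 and 1279 (73.7%) in sham replicate 2. TBI replicate 1 was similar, with 1302 domains (75.0%) held by 1 peak, whereas TBI replicate 2 had 1 peak in 663 (38.2%) and several in 1073. The most pieces in 1 domain were 11 and 6 in sham and 13 and 21 in TBI. Only 2 domains had no peak at all in a TBI sample, and both were missing from TBI replicate 1.

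The domains stayed long in the deeper TBI library and were shorter in the shallower one. The median length of the longest peak per domain was 5353.5 and 5081.5 bases in the sham samples, 5557.5 bases in TBI replicate 1 and 4336 bases in TBI replicate 2. A peak of at least 4000 bases was present in 1623 domains (93.5%) in TBI replicate 1 and in 1070 (61.6%) in TBI replicate 2. Both TBI samples had one in 1062 domains (61.2%), a single TBI sample had one in 569 (32.8%) and neither did in 105 (6.05%). Of the 569, 561 were long in TBI replicate 1 alone and 8 in TBI replicate 2 alone, so nearly all of these domains missed the limit in the library with the fewest tags alone. Of the 105, 78 had a peak over 3000 bases in at least 1 TBI sample. The median per-million pileup of the 105 was 1.46 and 1.10 in sham and 2.08 and 1.59 in TBI. Their median fold enrichment over the background was 9.30 and 7.22 in sham and 12.7 and 7.05 in TBI.

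**Figure D1:**
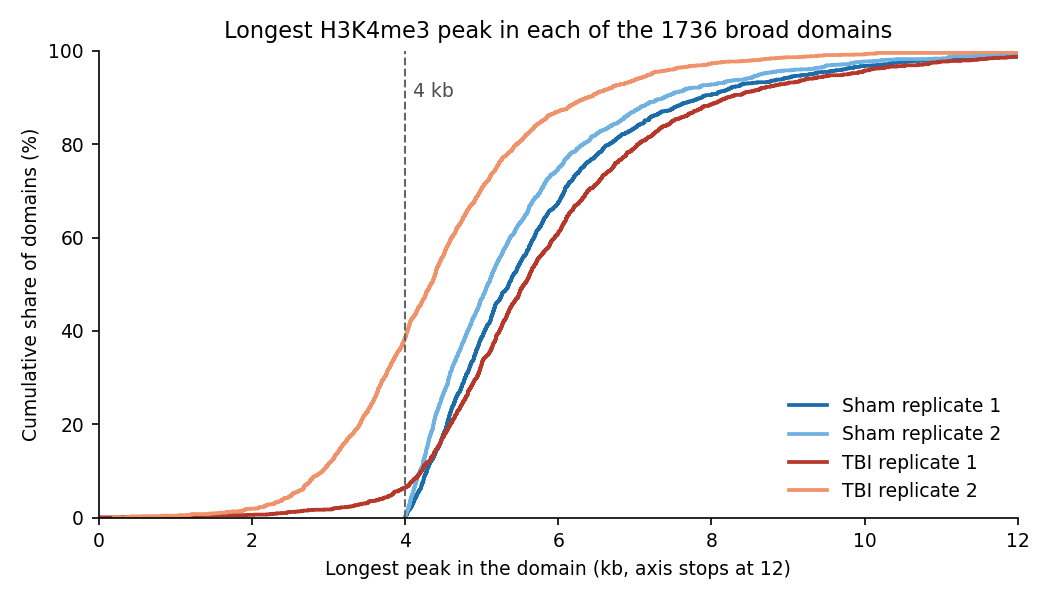
Cumulative share of the 1736 domains (vertical axis, %) whose longest peak is no longer than the length on the horizontal axis (kb), with 1 line per sample and a domain without a peak counted as 0. The sham lines start at 4 kb because the rule set them there, TBI replicate 1 starts at shorter lengths, crosses them and has a median of 5557.5 bases, to the right of both, and TBI replicate 2 runs far to the left, with a median of 4336 bases.

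Peaks covered 97.0% and 94.1% of the domain bases in sham replicates 1 and 2, 94.4% in TBI replicate 1 and 83.3% in TBI replicate 2. Fewer than 50% of the bases were covered in 8 domains in TBI replicate 1 and in 17 domains in TBI replicate 2. Peaks also ran past the ends of the sham union in the TBI samples. A peak extended beyond at least 1 end of the union in 1382 domains in TBI replicate 1 and in 793 in TBI replicate 2, against 155 and 276 in sham, whose own peaks drew the ends.

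Because the rule used the sham samples alone, it was also applied to the TBI samples. It gave 1282 domains, with a median length of 6023.5 bases, of which 1063 (82.9%) had a peak of at least 4000 bases in both sham samples, 142 in a single one and 77 in neither. Without TBI replicate 2 no overlap of samples could be asked for. All 3197 peaks of at least 4000 bases in TBI replicate 1 then counted, 1624 of them long in both sham samples. Sham replicates 1 and 2 taken alone gave 2479 and 2243 such peaks. The domains chosen on both sham samples and those chosen on both TBI samples overlapped in 1063 cases. This is 61.2% of the domains chosen on sham and 82.9% of those chosen on TBI. The remaining 219 domains chosen on TBI (17.1%) were not empty in sham. All of them had a peak in both sham samples, with median lengths of 3961 and 3714 bases, close to the limit.

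Where a domain held several peaks, its highest pileup is that of the peak with the highest mean. It had a median of 34.7 and 29.3 in the sham samples, 37.6 in TBI replicate 1 and 15.97 in TBI replicate 2. As per-million pileup the medians were 1.95 and 1.54 in sham and 2.34 and 2.21 in TBI, so on this scale both TBI medians lay above both sham medians. The median fold enrichment over the background of the library was 12.3 and 10.0 in sham and 14.2 and 9.57 in TBI, where the groups overlapped. The order of the groups thus changed with the scale. TBI replicate 2, the library with the fewest tags, had the lowest median fold enrichment beside a median per-million pileup above both sham samples. The part of depth in the fold enrichment was not tested. As per-million pileup, the median log2 difference between TBI and sham was 0.38 over the fitted domains and 0.24 over all fitted regions, a shift that the quantile normalization used for the test below takes away. Over domains, the rank correlation of pileup was 0.95 between the sham samples, 0.90 between the TBI samples and 0.88 to 0.93 across groups. For the longest peak these values were 0.74, 0.65 and 0.52 to 0.72. They are descriptions over domains of the same genome and share each library's depth.

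The pileup of broad domains was only slightly higher than that of regions of intermediate length. The 14087 regions with sham peaks from 1000 bases to just under 4000 had median per-million pileups of 1.65 and 1.35 in sham and 2.06 and 1.82 in TBI. The ratio of the domain median to this median was 1.18 and 1.15 in sham and 1.14 and 1.21 in TBI. The 32572 regions under 1000 bases in both sham samples were far lower, and the domain median was 7.17 and 5.73 times theirs in sham and 8.38 and 6.29 times theirs in TBI. The lists also differed in how often the classes were found. No peak was found in TBI replicates 1 and 2 for 0.115% and 0% of the domains, 0.561% and 0.639% of the regions of intermediate length, and 43.2% and 48.1% of the short regions.

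**Figure D2:**
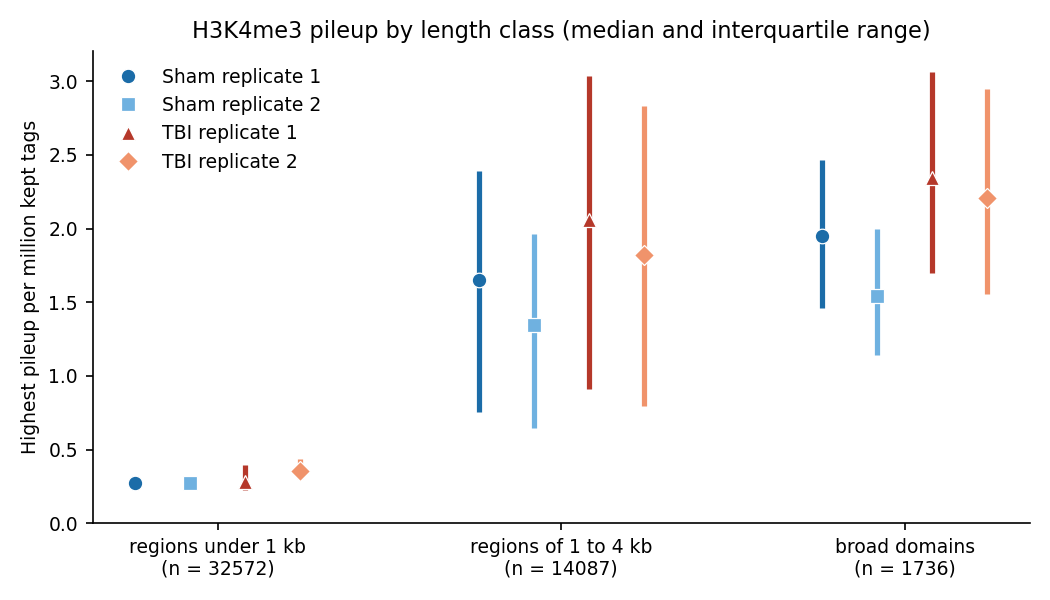
Highest per-million pileup (vertical axis) for regions under 1 kb, regions of 1 to 4 kb and broad domains, with the median (point) and the interquartile range (line) over regions for each of the 4 samples. Domain medians lie between 1.54 and 2.34 and those of regions of 1 to 4 kb between 1.35 and 2.06, while short regions lie between 0.269 and 0.351.

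Within the domains, greater length did not go with a higher pileup, which is a mean over a peak and not its summit. The 510 domains with a union under 5000 bases had median per-million pileups of 2.08 and 1.62 in sham and 2.48 and 2.37 in TBI. The 75 domains of 10000 bases or more had 1.76 and 1.45 in sham and 2.05 and 1.82 in TBI, lower than the shortest class in each of the 4 samples. The rank correlation of union length with pileup was -0.10 and -0.07 in sham and -0.11 and -0.08 in TBI, which is weak. A TBI replicate 2 peak of at least 4000 bases was present in 37.8% of domains under 5000 bases, 60.0% of those of at least 5000 and under 6000 bases, 80.8% of those of at least 6000 and under 8000 bases, 80.0% of those of at least 8000 and under 10000 bases, and 86.7% of the longest class.

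The longest domains ranged widely in pileup. The second longest was chr6:79522108-79545421, with a union of 23314 bases. Its longest peak measured 23314 and 22272 bases in sham and 22151 and 14351 bases in TBI, and its per-million pileup was 2.15 and 1.62 in sham and 2.45 and 2.63 in TBI. The domain at chr2:11721126-11740406 (19281 bases) was held by 1 peak of 19272, 19146 and 19540 bases in the sham samples and TBI replicate 1, and by a peak of 17539 bases and a second piece in TBI replicate 2. Its per-million pileup was 2.44 and 1.73 in sham and 2.78 and 2.00 in TBI. Both domains thus kept most of their length in all 4 samples, and on the quantile-normalized scale they differed by 0.03 ± 0.19 and -0.20 ± 0.20 (log2, TBI minus sham, SE), within the error.

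Among the other long domains, chr2:140808426-140827661 (19236 bases) was split in every sample, into 2 and 2 peaks in sham and 3 and 4 peaks in TBI, with a longest piece of 10150 to 11423 bases. The domain at chr1:132480859-132497017 (16159 bases) had a longest peak of 15372 and 9369 bases in sham and 16597 and 6319 bases in TBI, so the samples of each group differed from each other more than the groups did. At chr15:112292526-112307736 (15211 bases) the longest peak was 14578 and 14671 bases in sham and 14920 bases in TBI replicate 1, and 8760 bases in TBI replicate 2. The longest domain of each of the 20 autosomes and of chromosome X measured between 10321 and 30903 bases. On chromosome 11 the longest one, chr11:80469019-80480140, was a single peak in all 4 samples, of 11044 and 11104 bases in sham and 11449 and 11683 bases in TBI.

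The very longest domain was shallow. At chr17:55596764-55627666 (30903 bases), sham replicate 2 had 1 peak over the whole stretch, whereas sham replicate 1 had 11 pieces of at most 6315 bases and the TBI samples had 13 and 21 pieces of at most 6161 and 2751 bases. The per-million pileup was 0.403 and 0.522 in sham and 0.347 and 0.598 in TBI, and the fold enrichment stayed between 2.42 and 3.60. The neighbouring domain chr17:55650331-55671894 (21564 bases) looked alike, with a longest piece of 9793 and 11118 bases in sham and 5013 and 2981 bases in TBI. Other long domains lay between. The fold enrichment of chr7:15956143-15969897 (13755 bases) was 3.36 and 4.41 in sham and 2.46 and 2.19 in TBI. Its per-million pileup was 0.492 and 0.651 in sham and 0.354 and 0.398 in TBI. For chr18:64524190-64538694 (14505 bases) the fold enrichment was 7.50 and 7.49 in sham and 7.23 and 4.32 in TBI. The per-million pileup there was 1.17 and 1.14 in sham and 1.16 and 0.922 in TBI.

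Few domains were this low. With a limit of 4 on the fold enrichment in all 4 samples, a limit chosen after the values were seen, 27 domains (1.56%) were shallow, with a median union length of 6607 bases, and 6 of them were over 10000 bases. Their median fold enrichment was 3.01 and 3.31 in sham and 2.44 and 2.63 in TBI. The median number of pieces was 2 and 1 in sham and 3 and 4 in TBI. A peak of at least 4000 bases in both TBI samples was found in 3 of the 27 (11.1%), against 61.2% of all domains, and 14 had one in neither. Their median share of covered bases was 94.2% and 98.0% in sham and 81.6% and 70.6% in TBI. Low TBI values were part of this limit and the sham lengths were set by the rule, so these contrasts are not independent of the choice. The part of depth in these fold enrichments was not tested.

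To ask whether the pileup in the domains differed 1 day after injury, it was compared over all 34589 regions with a peak in all 4 samples. Pileups were put on the log2 scale and quantile-normalized, so that every sample had the same distribution, and were tested with limma and Benjamini-Hochberg adjustment over all regions. No domain was called at an adjusted p of 0.05, and neither was any other region (0% of the 34589 tested). The lowest adjusted p was 0.201 among the 1731 fitted regions that held a domain and 0.152 among all regions. Without sham replicate 1 some regions were called, domains among them, in a fit with a single sham sample. The median log2 difference in that fit was 0.029 over the domains and 0.020 over all regions. Leaving out any of the other 3 samples gave no call. The 1731 fitted regions hold 1734 domains, and the other 2 domains could not be fitted because they had no peak in TBI replicate 1. With 2 samples against 2, an exact two-sided permutation test cannot give a p below 0.333, so none is given for single domains.

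At an unadjusted p under 0.05, 20 of the 1731 were higher in TBI (1.16%), where 4.05% of all regions were, and 44 were lower (2.54%), where 4.02% of all regions were. Both shares are below the background. The balance turned with the scaling. Under median centring 60 domains were higher and 31 lower, where 1074 and 1371 of all 34589 regions were. As per-million pileup 296 domains were higher and 18 lower, where 4065 and 515 of all regions were. On the quantile-normalized log2 scale the median difference was -0.00486 over the domains and 0.00467 over all regions. Of the domains, 5% lay below -0.32 and 5% above 0.31, and for all regions these bounds were -0.46 and 0.44. The median size of the difference was 0.12 between the TBI and sham means, 0.12 between the sham samples and 0.16 between the TBI samples, where a mean of 2 samples varies less than a single sample.

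**Figure D3:**
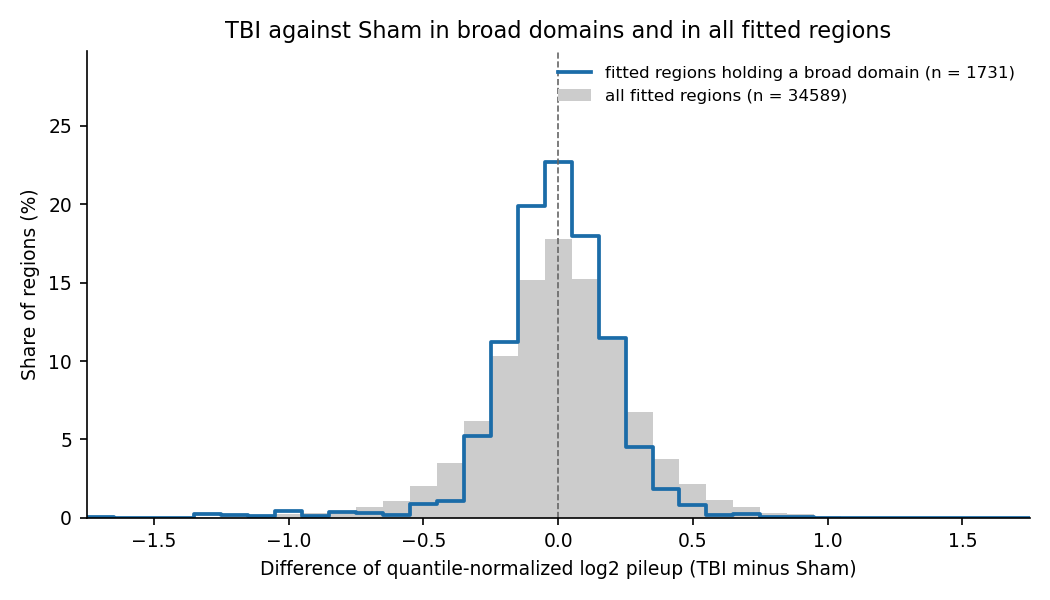
Share of regions (vertical axis, %) by the difference of quantile-normalized log2 pileup between TBI and sham (horizontal axis, bins of 0.1, shown from -1.75 to 1.75), in grey for all 34589 fitted regions and as a blue line for the 1731 that hold a broad domain. Both are centred near 0, and the domains are the narrower of the pair.

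The direction of domains whose groups did not overlap depended on sham replicate 1. Ranked within each sample, both TBI samples lay above both sham samples in 331 of the 1731 (19.1%), where 19.3% of all regions did, and below both in 378 (21.8%), where 17.6% of all regions did. Without sham replicate 1 the order turned, with 625 above (36.1%, where 35.8% of all regions were) and 491 below (28.4%, where 31.9% of all regions were). Leaving out any other sample kept more domains below than above. Without sham replicate 2 there were 449 above (25.9%, all regions 32.4%) and 727 below (42.0%, all regions 33.3%). Without TBI replicate 1 there were 654 above (37.8%, all regions 35.3%) and 690 below (39.9%, all regions 36.1%). Without TBI replicate 2 there were 568 above (32.8%, all regions 36.4%) and 675 below (39.0%, all regions 32.5%). In the set chosen on TBI, 12.8% lay above and 30.5% below. In a set of 2008 regions chosen on the mean length over all 4 samples, 15.7% lay above and 23.6% below. The bases covered gave no call either (0% of the 34589 regions). At an unadjusted p under 0.05, 3 domains had more covered bases in TBI, where 4.86% of all regions did, and 11 had fewer, where 4.20% of all regions did.

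The domains with the largest decreases lay close to each other. Of the 5 largest, 4 lay within 49.6 kb at chr16:64552921-64602498. In the domain chr16:64583754-64589581 (5828 bases) the per-million pileup was 0.652 and 0.957 in sham and 0.204 and 0.369 in TBI. Peaks covered 92.0% and 100% of it in sham and 8.85% and 6.86% in TBI, where the longest peaks were 316 and 200 bases. Both TBI samples were far below both sham samples, and the difference was -1.66 ± 0.29 on the quantile-normalized log2 scale (SE, n = 2 against 2, limma adjusted p = 0.201). The differences with an SE given for the domains below are on this scale too, whereas the pileups beside them are per-million values.

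The 3 other domains of that stretch showed the same order of samples. At chr16:64566263-64574328 the per-million pileup was 0.534 and 0.878 in sham and 0.252 and 0.372 in TBI, a difference of -1.32 ± 0.29 (limma adjusted p = 0.276). At chr16:64597967-64602498 it was 0.795 and 1.29 in sham and 0.329 and 0.660 in TBI, a difference of -1.27 ± 0.37 (limma adjusted p = 0.389). The domain chr16:64552921-64559001 had 0.628 and 0.854 in sham and 0.268 and 0.430 in TBI, a difference of -1.25 ± 0.26 (limma adjusted p = 0.259). In all 4 the second sham sample was the highest and the SE of 0.26 to 0.37 was above the median SE of 0.19 over the domains. The 3 other fitted regions of the stretch had a median difference of -0.999, and 2 of them were lower in TBI. When the per-million pileup was tested instead, these 4 were called lower, with limma adjusted p values from 2.97e-04 to 0.0288. In that fit 4 domains elsewhere were called higher, and of all 34589 regions 41 were called lower and 148 higher. Without sham replicate 1, the lower of the sham samples here, the 4 differences ran from -2.07 to -1.58. Without sham replicate 2 they were smaller, from -1.31 to -0.80.

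Another stretch with lower values in TBI lay at chr20:42557768-42613501, with 3 domains. In chr20:42595054-42599950 (4897 bases) the per-million pileup was 2.90 and 4.31 in sham and 1.67 and 1.99 in TBI, a difference of -1.34 ± 0.27 (limma adjusted p = 0.259). Its length hardly moved, with a longest peak of 4842 and 4897 bases in sham and 4810 and 4550 bases in TBI. The length thus stayed, whereas the domains on chromosome 16 were broken into short pieces in TBI. The neighbour chr20:42557768-42563482 had per-million pileups of 2.31 and 3.20 in sham and 1.495 and 1.68 in TBI and a longest peak between 5558 and 5715 bases in all 4 samples (difference -1.16 ± 0.27, limma adjusted p = 0.289). In chr20:42603685-42613501 it was 1.98 and 1.46 in sham and 1.17 and 1.97 in TBI, where the groups overlapped on this scale. Without sham replicate 1 the difference in chr20:42595054-42599950 was -1.76, and without sham replicate 2 it was -0.97.

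**Figure D4:**
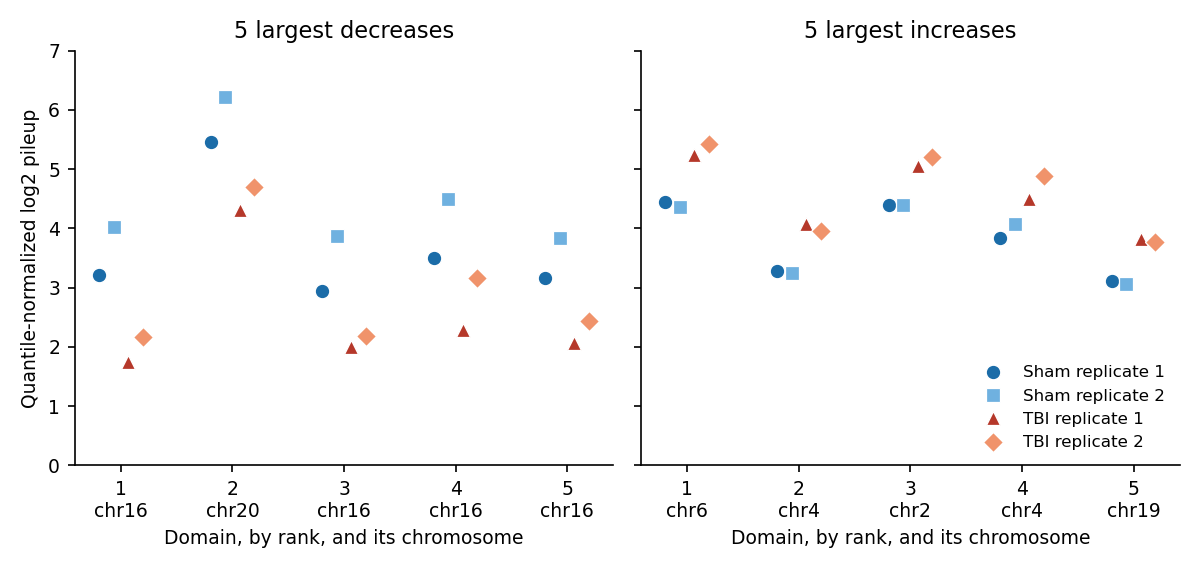
Quantile-normalized log2 pileup (vertical axis) in each of the 4 samples for the 5 domains with the largest decrease and the 5 with the largest increase among those whose groups did not overlap, numbered by rank with their chromosome. Both TBI samples lie below both sham samples on the left and above them on the right. On the left the sham samples are also well apart, with sham replicate 2 the higher one in each domain.

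The domains that came nearest to being lost lay on chromosome 5. At chr5:81806685-81817595 (10911 bases) the sham samples had 1 peak each, of 10626 and 10911 bases, with per-million pileups of 0.567 and 0.813. TBI replicate 1 had no peak there and TBI replicate 2 had 3, of at most 585 bases, covering 10.4% of the domain. At chr5:81787127-81795551 (8425 bases) the sham peaks were 8368 and 8412 bases long with per-million pileups of 0.498 and 0.721. TBI replicate 1 again had none and TBI replicate 2 had 2, of at most 393 bases, covering 8.81%. Between them, chr5:81795882-81802659 (6778 bases) was covered to 95.2% and 100% in sham and to 17.8% and 22.4% in TBI, with per-million pileups of 0.846 and 1.05 in sham and 0.484 and 0.647 in TBI (difference -0.96 ± 0.25, limma adjusted p = 0.335). These domains were low in sham as well, with a fold enrichment of 3.40 to 6.89, and the lowest per-million pileup that counted as a peak was 0.187 in TBI replicate 1 and 0.276 in TBI replicate 2.

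Such neighbours prompted a count over all runs of domains, defined after the data had been seen as 3 or more domains with at most 50 kb from each to the next. There were 19 runs with 63 domains. In 9 runs every fitted domain was lower in TBI and in 0 every one was higher. In 2 of the 9, at chr1:231803385-231861046 and chr10:86450965-86549841, the median differences of -0.02 and -0.06 were far within the SE, and the run on chromosome 5 had 1 fitted domain. On the quantile-normalized scale, sham replicate 2 lay above sham replicate 1 in every fitted domain of the runs on chromosomes 5, 16 and 17. The same held for the run at chr1:56891425-56961757, but not for every domain of the other lower runs. Of the 63 domains, 22 lay below both sham samples in both TBI samples, against a background of 17.6% of all regions. Above both lay 7 of the 63, against 19.3% of all regions. With 1 sample left out, 28 to 39 lay below, against 31.9% to 36.1% of all regions, and 11 to 14 above, against 32.4% to 36.4%. The number of runs with every domain lower was 6 to 8 when any 1 of the 4 samples was left out, and 8 without TBI replicate 2, while the number with every domain higher was 1 or 2. Domains of a run are neighbours and are not independent of each other, so this is a description without a test.

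Besides those named above, the lower runs included 4 domains at chr1:56891425-56961757. The domain chr1:56891425-56902570 (11146 bases) had per-million pileups of 1.72 and 2.18 in sham and 1.19 and 1.30 in TBI (difference -0.98 ± 0.25, limma adjusted p = 0.328), and chr1:56939794-56948313 had 2.62 and 3.49 in sham and 1.89 and 2.32 in TBI (difference -0.95 ± 0.26, limma adjusted p = 0.361). The groups overlapped in the other 2 domains of that run, which differed by -0.26 ± 0.28 and -0.20 ± 0.30. The run at chr17:91067446-91130397 had 3 domains with differences from -0.89 to -0.50. In the one with the highest pileup, chr17:91125996-91130397, the per-million value was 2.99 and 4.54 in sham and 3.03 and 2.30 in TBI. On this scale sham replicate 1 and TBI replicate 1 were thus alike. All 18 other fitted regions of that run were lower in TBI too, with a median difference of -0.72. The 2 shallow runs on chromosome 17, at chr17:46479561-46510491 and chr17:55596764-55671894, had median differences of -0.47 and -0.27.

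**Figure D5:**
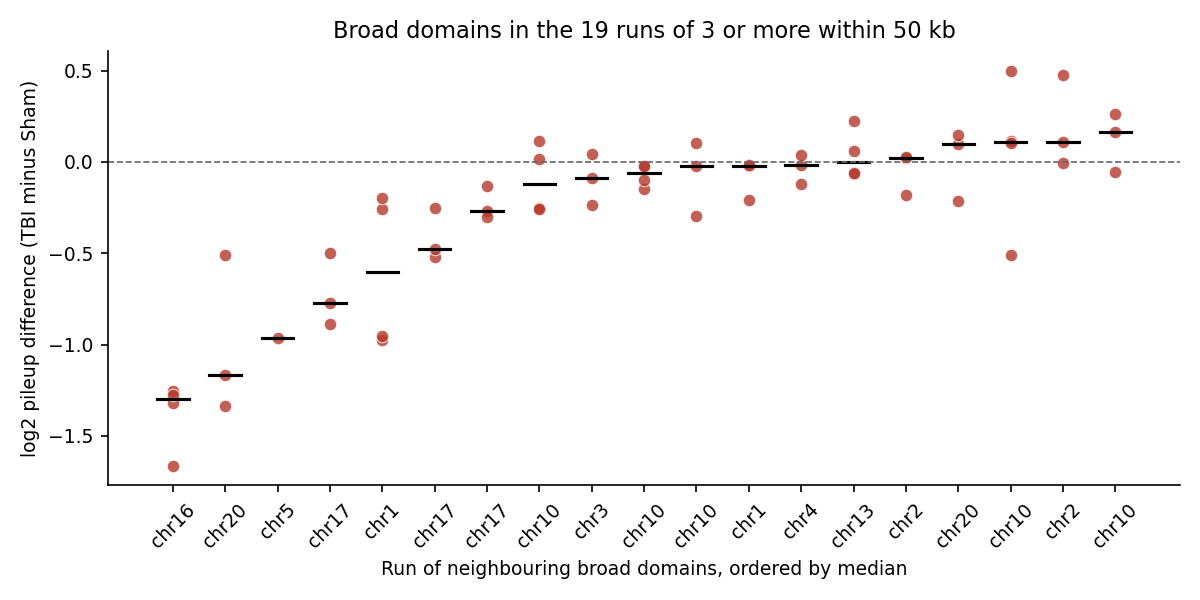
Difference of quantile-normalized log2 pileup between TBI and sham (vertical axis) for each fitted domain (point) in the 19 runs of neighbouring domains (horizontal axis, by chromosome, ordered by the median, drawn as a bar). The run on chromosome 16 has the lowest median, -1.30, and the highest median of a run is 0.16. The run on chromosome 5 shows 1 point because its other 2 domains had no peak in TBI replicate 1.

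The largest increases were single domains on different stretches, and none passed the test. With the per-million pileup, whose median over the domains is itself higher in TBI, 3 of the 5 were called higher, where 148 of all 34589 regions were. They were chr6:137759410-137764650 (limma adjusted p = 0.00281), chr2:184998953-185003936 (limma adjusted p = 0.0270) and chr4:224880738-224888002 (limma adjusted p = 0.0424). In chr6:137759410-137764650 (5241 bases) the per-million pileup was 1.53 and 1.18 in sham and 3.23 and 3.54 in TBI, a difference of 0.93 ± 0.18 (limma adjusted p = 0.244). In the same domain the longest peak shrank from 5237 and 5228 bases in sham to 2463 and 1844 bases in TBI, with 4 and 3 pieces. The value for TBI is therefore that of the piece with the highest pileup, and with a mean over all pieces, weighted by length, the difference was 0.33. In chr2:184998953-185003936 (4984 bases) the pattern was alike. Its per-million pileup was 1.47 and 1.20 in sham and 2.83 and 2.95 in TBI (difference 0.74 ± 0.18, limma adjusted p = 0.304), its longest peak 4809 and 4600 bases in sham and 3223 and 1717 bases in TBI, and its length-weighted difference 0.24.

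The other 3 increases did not come with a broken domain in the deeper TBI library. In chr19:36790234-36795145 (4912 bases) the per-million pileup was 0.604 and 0.521 in sham and 1.17 and 0.994 in TBI, a difference of 0.71 ± 0.18 (limma adjusted p = 0.309). The peak there was 4727 and 4770 bases long in sham and 10096 and 7501 bases in TBI, so it was the longer one in both TBI samples. In chr4:211577914-211583987 (6074 bases) the per-million pileup was 0.683 and 0.590 in sham and 1.41 and 1.15 in TBI, a difference of 0.75 ± 0.18 (limma adjusted p = 0.292), with a longest peak of 5295 to 6071 bases in all 4 samples. In chr4:224880738-224888002 (7265 bases) it was 1.01 and 0.989 in sham and 1.89 and 2.32 in TBI, a difference of 0.73 ± 0.21 (limma adjusted p = 0.387), with a longest peak of 7179 and 6868 bases in sham and 7984 and 4666 bases in TBI.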

How the data were processed

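H3K4me3 chromatin immunoprecipitation of 4 hippocampus samples (2 sham, 2 TBI, day 1) was used, and the 14 RNA-seq samples were not used here. Per the labels and methods, reads were trimmed (Trim Galore 0.5.0), aligned to rn5 (BWA 0.7.16a), freed of duplicates (SAMtools 1.8) and given to MACS2 2.1.2 for broad peaks, 1 list per sample against its own input. The file headers state tags extended to 200 bases, p limits of 0.0001 and 0.1, and 1 genome-wide background. They also give redundant rates of 0.28 to 0.39, so the tags MACS2 received still held duplicates, although the methods name SAMtools for their removal. The pileup is a signal deposited by the authors without scaling to depth, and the fold enrichment is a ratio deposited with it. In broad mode these are means over a peak. The −log10 p-values and −log10 q-values are used as deposited by the authors, although the headers state that q was not calculated.

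Peaks were merged in Python 3.11.15 (pandas 2.3.3). Where a domain held several peaks, its highest pileup, the longest peak and all covered bases were taken. Regions with a peak in all 4 lists were quantile-normalized on the log2 scale and tested with limma 3.58.1 (two-sided, Benjamini-Hochberg, threshold 0.05). The fitting script was tested on simulated data. Alternatives were another length limit, overlap, joining of peaks, normalization, pseudocount, value per region, filter, the replicate number as a block, and leaving out each sample. The lists were not thinned to a common depth, so the part of depth in broken or missing stretches was not tested.

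Domains were named by rule: the 10 longest, the longest of each chromosome, the 5 largest increases and the 5 largest decreases without overlap between groups, those without a peak in a TBI list, the 5 least covered in TBI, and 3 pairs on each side of the limit. Domains described as members of a run were added after their values were seen. The members, the rules and the lists were chosen with earlier results of these data known. No annotation of rn5 was used here, so no gene was assigned to a domain.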

Additional observations from a re-analysis of the deposited data

How the results depend on the processing

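The counts of domains followed the definition. With a limit of 3000 bases there were 4039 domains, 2845 of them long in both TBI samples, and 3333 chosen on TBI, 2842 of them long in both sham samples. With 5000 bases these were 811, 435, 531 and 435. Joining peaks up to 500 bases apart gave 2570 domains, 1792 of them long in both TBI samples. It gave 2307 chosen on TBI, 1794 of them long in both sham samples. Choosing domains on 1 sample gave 2243 to 2479 on sham, of which 1100 to 1169 were long in both TBI samples, and 1341 to 3197 on TBI, of which 1074 to 1624 were long in both sham samples.

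By pileup, 0 regions were called with percentile ranks, length-weighted pileup, fold enrichment, log2(pileup + 5), regions with a peak in at least 2 lists or a −log10 q of at least 10, and 0 domains in the sets chosen on TBI or on all samples. Median centring called 2 regions higher and 2 lower in TBI, none of them a domain. The per-million pileup, added after the data were seen, called 148 higher and 41 lower, with 4 domains each way. With the replicate block 69 regions were higher and 162 lower, with 0 and 13 domains, of which 7 lay in the runs on chromosomes 16, 20 and 5. Samples of 1 number share nothing else in the labels, and their deviations from the group means correlated at 0.16 over all regions and 0.28 over domains, with 2 pairs. Leaving out 1 sample gave 0 to 9 regions higher and 0 to 74 lower, with 0 to 6 domains lower. All of these calls came without sham replicate 1, when the other sham sample is assumed to vary like the TBI samples, and they include 3 domains on chromosome 16 and 2 on chromosome 20. For covered bases, limiting peaks to a −log10 q of at least 10 called 1 region with fewer bases in TBI, the domain chr1:56952970-56961757. The cause was not tested. Leaving out samples gave 0 domains with a different number of covered bases, and the block changed no other call. Of the 10 most changed domains, all kept their direction in each alternative run on them. They were chosen for large differences without overlap between groups, which largely fixed this outcome for the block and for leaving out a sample. It is therefore not a check on their direction.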
